A study of Homo sapiens with 4 samples.

Results

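Cells sense DNA that has strayed into the cytosol with a small set of proteins, and the RNA of the human genes for these proteins and for the kinases they activate was examined here in HT-29 cells that overexpress TRIM40. The genes were cGAS, IFI16, AIM2, ZBP1, STING, TREX1, TBK1 and IKBKE, taken by gene symbol from both deposited transcript tables, with their transcripts summed per gene. These are 8 of the 27685 genes in the tables, which list cGAS under the older symbol MB21D1 and STING under TMEM173. HT-29 is a human colorectal adenocarcinoma cell line used as a model of colonic epithelium. In 2 independent RNA-seq experiments, HT-29 cells of the genotype labelled WT, which carried the control vector, were compared with HT-29 cells stably overexpressing TRIM40 with an N-terminal Myc tag. The TRIM40 sequence had been cloned into pMSCV, a retroviral vector. The paper's general methods describe retroviral transduction with polybrene, followed by selection with puromycin. Neither group received a further treatment. Whether the overexpressing cells were 1 clone or a mixed population is not given in the sources used here. Each experiment had 1 library of each group, giving 2 libraries per group and 4 in all. The comparison asks which RNAs change when TRIM40, an E3 ubiquitin ligase whose RNA was not detected in the control vector cells, is supplied from a vector.

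In this pathway cGAS binds double-stranded DNA and makes the cyclic dinucleotide cGAMP, which activates STING, an adaptor in the membrane of the endoplasmic reticulum. STING recruits the kinase TBK1, and the related kinase IKK epsilon (gene IKBKE) can act in its place, to phosphorylate IRF3, a transcription factor that induces type I interferon. IFI16 and AIM2 are PYHIN proteins that bind DNA, AIM2 assembling an inflammasome with PYCARD and caspase-1. ZBP1 binds left-handed nucleic acids and can trigger necroptosis through RIPK3, while TREX1 is the exonuclease that removes cytosolic DNA. Several of these genes, IFI16 and ZBP1 among them, are themselves induced by interferon in many cell types.

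The totals were between 60954602 and 67424698 reads per library. TRIM40 had 0 reads in each control vector library, and with Myc-TRIM40 it had 272646 in the first experiment and 110665 in the second. All 9 colon epithelial markers examined, such as EPCAM, KRT20 and VIL1, were at 1.22 FPKM (fragments per kilobase of transcript, scaled to sequencing depth) or more in every library.

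Of the 8 genes, IFI16 and ZBP1 were nearly silent in control vector cells and higher in Myc-TRIM40 cells, and AIM2 had no reads anywhere. The remaining 5 genes were expressed in every library, at FPKM that differed by less than 1.5-fold between the groups within each experiment. IFI16 and ZBP1 were the 2 members at least 1.5-fold higher in experiment 1 by the ratio of FPKM + 1, a form that understates the change of low genes. In bulk RNA, more cells expressing a gene and more RNA per cell cannot be told apart. Over all 27685 genes, of which 16540 to 17323 had reads in a given library, 1.66% passed that threshold. In experiment 2 no member did, against 4.71% of all genes, and therefore no member was 1.5-fold higher in both experiments, against 0.26%. No member was 1.5-fold lower in either experiment, where the shares of all genes were 0.466% in experiment 1, 1.59% in experiment 2 and 0.0506% in both.

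For a test across both experiments, edgeR's quasi-likelihood model was fitted with the experiment as a block, and 6 of the 8 members had enough reads to be tested among 14868 genes. At an adjusted p (Benjamini-Hochberg) under 0.05, none of the 6 members was higher or lower, against 0.0404% of all genes tested that were higher and 0.0202% that were lower. At an unadjusted p under 0.05, 1 member, IFI16, was higher and none was lower, against 3.41% and 1.13% of all genes tested. DESeq2 called IFI16 higher at an adjusted p under 0.05, as it did 0.303% of the genes tested, and called no other member, while limma on log2(FPKM + 1) called none. IFI16 passed the filter on low counts only through its Myc-TRIM40 libraries, so these calls of IFI16 are descriptions. The median log2 fold change of the 6 members was 0.17, beside 0.04 over all genes tested. In both experiments 4 of the 6, namely IFI16, STING, TBK1 and IKBKE, were above 0, which 28.6% of all genes tested were, and 1 of the 6, TREX1, was below 0 in both, against 26.3%. IFI16 counts here and in the median, although the filter let it in only through its Myc-TRIM40 libraries. STING was at 0.02 in experiment 2 and TREX1 at -0.01 in experiment 1, so these signs are a description.

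**Figure D1:**
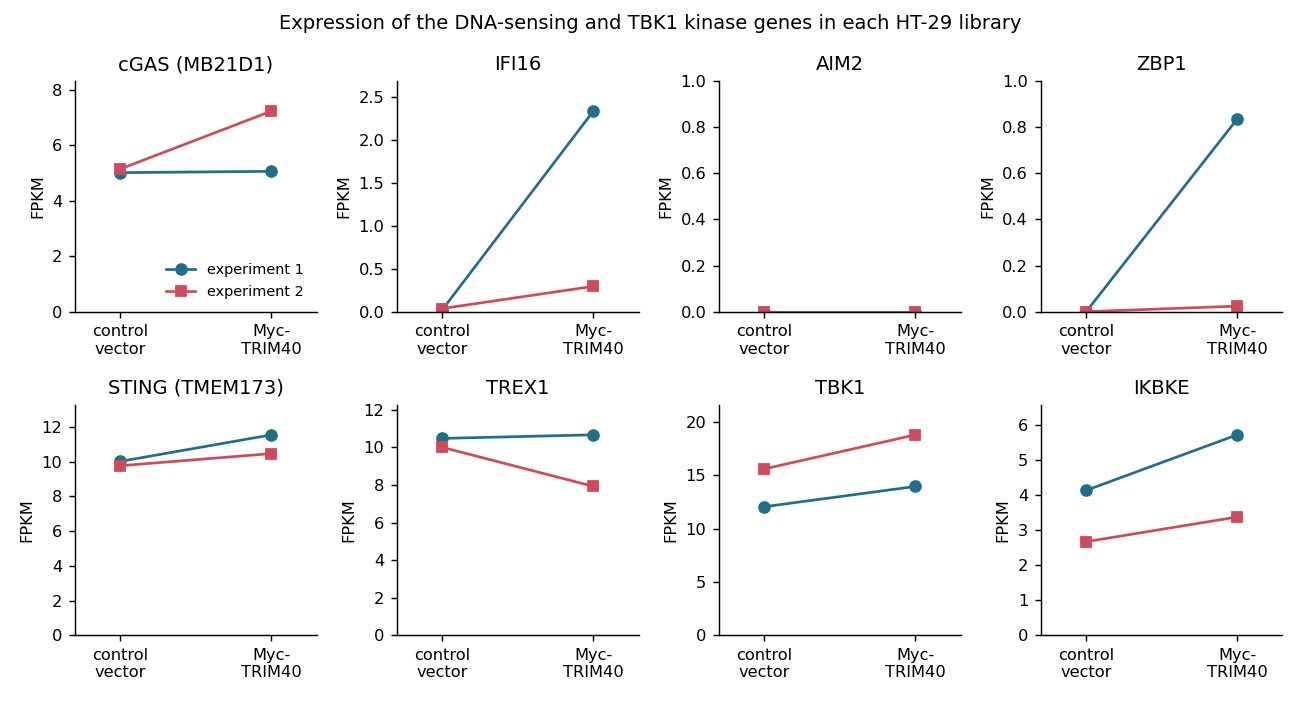
FPKM (y axis, linear from 0, a separate scale for each gene) of the 8 genes in control vector and Myc-TRIM40 cells, with a line joining the 2 libraries of each experiment (circles, experiment 1, and squares, experiment 2). IFI16 and ZBP1 leave the baseline mainly in experiment 1, to 2.34 and 0.835 FPKM, and AIM2 stays at 0. The other 5 genes lie within 1.5-fold of their control values, cGAS for example going from 5.14 to 7.23 FPKM in experiment 2.

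IFI16 (Entrez gene 3428, chr1:158979682-159024945 in hg19) is a nuclear and cytosolic DNA sensor that cooperates with STING. It had 4 and 7 reads in the control vector libraries of experiments 1 and 2, and 401 and 53 reads in the Myc-TRIM40 libraries. Both Myc-TRIM40 libraries were thus above both control libraries, and the library of experiment 1 was well above that of experiment 2. Over all 27685 genes, 0.361% had at most 10 reads in each control library and over 10 in each Myc-TRIM40 library. This limit was not among the planned thresholds, and the 27685 include genes without reads, which cannot meet it. The share is therefore a description. In FPKM IFI16 went from 0.0233 to 2.34 in experiment 1 and from 0.0367 to 0.296 in experiment 2. On reads normalized by edgeR's trimmed mean of M-values (TMM) it was 97.6-fold higher in experiment 1, with an exact 95% interval for counting error of 37.8 to 360.0, and 7.50-fold higher in experiment 2, with an interval of 3.40 to 19.6. These intervals cover counting error only, not the difference between experiments. The log2 fold change over both experiments was 4.80 (standard error 0.78, unadjusted p = 0.00022, adjusted p = 0.143 with edgeR), and 21 of the 14868 genes tested had a smaller p. DESeq2 gave 4.70 with an adjusted p of 8.45e-06. IFI16 entered the test only through its Myc-TRIM40 libraries, since its control reads were below what the filter on low counts requires. Its p-values and its rank among the genes are therefore descriptions.

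ZBP1 (Entrez gene 81030, chr20:56178902-56195632) had 0 reads in each control vector library, and the Myc-TRIM40 libraries of the first and second experiment held 97 and 5 reads. Only the first of these was clearly above the floor, set here at 3 reads per library. Against that floor ZBP1 was, after TMM normalization, at least 31.5-fold higher in the first experiment, and the bound for the second was 1.65-fold. Both bounds take the Myc-TRIM40 reads as exact and leave out their counting error. ZBP1 did not pass the filter on low counts, so it was not tested. Its 97 reads in experiment 1 were assigned to all 6 of its listed transcripts, with 8 to 28 reads each, whereas the 5 reads of experiment 2 were all assigned to 1 non-coding transcript, variant 6.

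AIM2 (Entrez gene 9447, chr1:159032274-159046691), the inflammasome-forming sensor, had 0 reads in all 4 libraries, as had the other PYHIN genes PYHIN1 and MNDA. A count of 0 allows up to 3 reads per library. Of the 4 PYHIN genes, IFI16 was thus the one with reads in these cells.

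Because AIM2, ZBP1 and IFI16 are abundant in leukocytes, 7 leukocyte markers were examined beside them. The leukocyte marker PTPRC was at 0.0118 FPKM or less in every library. Its reads in control vector and Myc-TRIM40 cells were 4 and 0 in experiment 1, and 0 and 3 in experiment 2. CD3E, MS4A1 and CSF1R had 0 reads in each library. The summed level of the 7 markers, most of it CD68 and CD14, was 9.10 FPKM with the control vector and 15.6 FPKM with Myc-TRIM40 in experiment 1, against 8.80 and 9.64 FPKM in experiment 2. ITGAM had 198 and 390 reads in the first experiment and 106 and 118 in the second. The sum was highest in the library where IFI16 and ZBP1 were highest, while PTPRC had 0 reads there. The part of these markers in the values of IFI16 and ZBP1 was not tested.

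cGAS (Entrez gene 115004, chr6:74134856-74162043), the enzyme that makes cGAMP, had 565 reads with the control vector and 572 reads with Myc-TRIM40 in experiment 1, and 644 against 836 in experiment 2. The first 3 values lay close together and only the Myc-TRIM40 library of experiment 2 stood higher. In the same order the FPKM were 5.01, 5.06, 5.14 and 7.23. Its log2 fold change was 0.17 (standard error 0.23, edgeR adjusted p = 0.913), from -0.02 in experiment 1 and 0.36 in experiment 2 on TMM-normalized reads, and on FPKM + 1 the value of experiment 1 was 0.01, with the opposite sign.

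STING (TMEM173, Entrez gene 340061, chr5:138855113-138862375), the adaptor that receives the cGAMP signal, was at 10.0 and 11.6 FPKM in experiment 1 and at 9.77 and 10.5 FPKM in experiment 2. The Myc-TRIM40 library was slightly above its control in each experiment. On TMM-normalized reads the log2 ratio was 0.25 in experiment 1 and 0.02 in experiment 2. The log2 fold change was 0.13 (standard error 0.21, edgeR adjusted p = 0.932), which is smaller than its error.

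TREX1 (Entrez gene 11277, chr3:48506919-48509044), the exonuclease that degrades cytosolic DNA, was at 10.5 and 10.7 FPKM in experiment 1 and at 10.00 and 7.92 FPKM in experiment 2. The Myc-TRIM40 library of experiment 2 was the lowest and the other libraries were alike. Its log2 fold change was -0.23 (standard error 0.23, edgeR adjusted p = 0.892), with -0.01 in experiment 1 and -0.45 in experiment 2. On FPKM + 1 experiment 1 gave 0.02. TREX1 overlaps ATRIP, a checkpoint protein gene, by 136 bases, and with the reads of both genes summed the value was -0.12.

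Of the kinases, TBK1 (Entrez gene 29110, chr12:64845840-64895899) had the highest level of the 8 genes per length, at 12.1 and 14.0 FPKM in experiment 1 and 15.6 and 18.8 FPKM in experiment 2. The experiments differed more than the groups, and within each the Myc-TRIM40 library was the higher. The log2 fold change was 0.16 (standard error 0.21, edgeR adjusted p = 0.910), with 0.18 and 0.14 in the 2 experiments. IKBKE (Entrez gene 9641, chr1:206643586-206670223) was at 4.14 and 5.73 FPKM in experiment 1 and at 2.68 and 3.38 FPKM in experiment 2. Again the Myc-TRIM40 library was the higher within each experiment, while the groups overlapped across experiments. Its log2 fold change was 0.32 (standard error 0.22, edgeR adjusted p = 0.888), with 0.41 and 0.22.

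**Figure D2:**
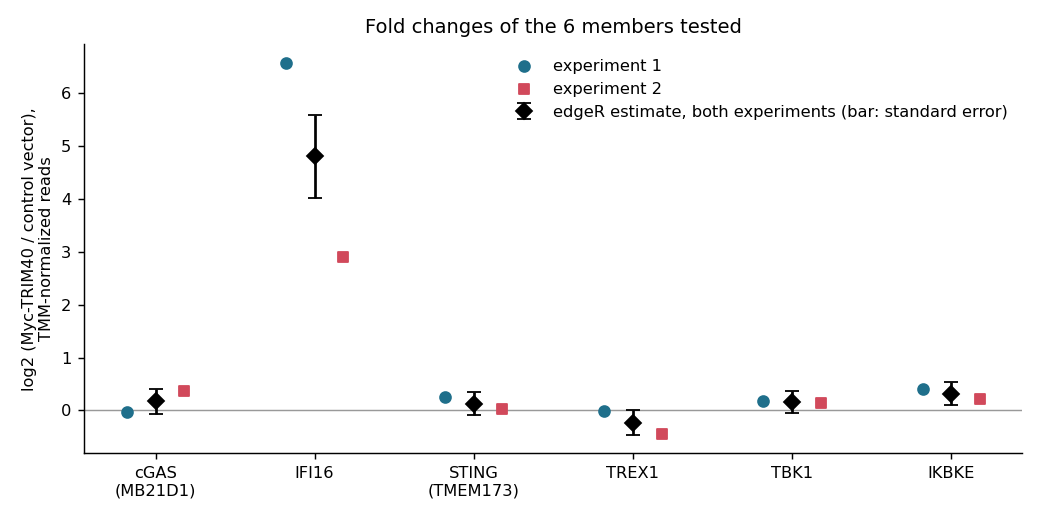
Log2 ratio of Myc-TRIM40 to control vector on TMM-normalized reads (y axis) for the 6 genes tested, as the edgeR estimate over both experiments (diamond, with its standard error as the bar) and in experiment 1 (circle) and experiment 2 (square). IFI16 lies at 6.57 and 2.89, and the other 5 genes have estimates between -0.23 and 0.32.

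In control vector cells the order of levels per length was TBK1 at 13.8 ± 2.50 FPKM (SD, n = 2), TREX1 at 10.2 ± 0.337, STING at 9.90 ± 0.177, cGAS at 5.08 ± 0.0949, IKBKE at 3.41 ± 1.04 and IFI16 at 0.0300 ± 0.00948, with ZBP1 and AIM2 at 0. The ranges of TREX1 and STING overlapped, with TREX1 the higher within each experiment, whereas the libraries of the other neighbours down to IFI16 did not overlap. In Myc-TRIM40 cells the order was TBK1 at 16.4 ± 3.43, STING at 11.0 ± 0.765, TREX1 at 9.29 ± 1.94, cGAS at 6.14 ± 1.53, IKBKE at 4.56 ± 1.66, IFI16 at 1.32 ± 1.44 and ZBP1 at 0.430 ± 0.573. There STING and TREX1 overlapped, with STING the higher within each experiment. The ranges of cGAS and IKBKE also overlapped, with IKBKE the higher in experiment 1 and cGAS in experiment 2. Those of IFI16 and ZBP1 overlapped too, with IFI16 the higher within each experiment. The scale mattered in experiment 2, where the median log2 ratio of the 11801 genes whose FPKM averaged 1 or more was 0.10 in FPKM and 0.33 in TPM, which rescales FPKM to the same sum in each library. In TPM, cGAS went from 9.31 to 15.4, TBK1 from 28.3 to 40.1 and IKBKE from 4.85 to 7.21 in that experiment, values to be read against this shift of all genes.

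The deposited estimates also assign reads to single transcripts. For STING, variant 1 took 49.7% and 75.6% of the summed FPKM in control vector and Myc-TRIM40 cells of experiment 1, and 33.3% and 46.8% in experiment 2. Its share was higher in Myc-TRIM40 cells by 25.9 and 13.6 percentage points, while the total of the gene hardly differed. For IKBKE, variant 3 took 14.7% and 3.61% in experiment 1 and 27.2% and 15.0% in experiment 2, lower in Myc-TRIM40 cells both times, but variant 2 took 0% and 53.5% in the first and 33.6% and 30.4% in the second. For TREX1, variant 5 had 239 and 39 reads in the control libraries and 0 reads in each Myc-TRIM40 library. A shift of at least 10 points the same way in both experiments was found in 9.29% of the 6168 genes with 2 or more transcripts and at least 500 reads in every library. In 9.06% of them a transcript shifted by as much in opposite ways, and the sets overlap, since IKBKE was in both. This threshold was chosen after the shares were seen, the shares were not tested, and the variants of each gene overlap, so the assignment of reads is an estimate.

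**Figure D3:**
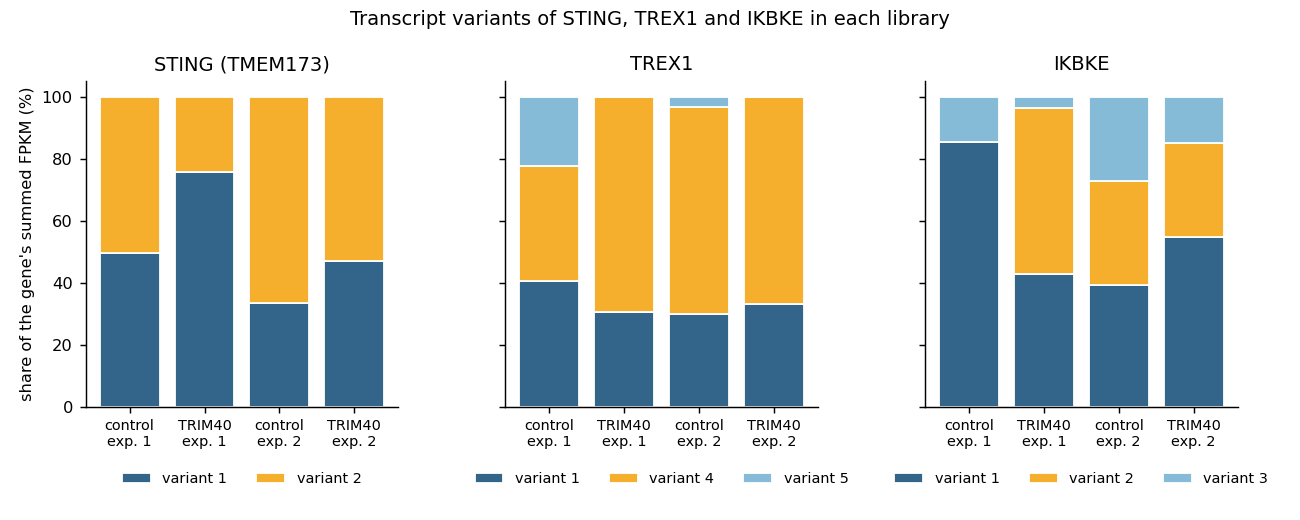
Share of each gene's summed FPKM (y axis, percent) held by its transcript variants (colours) for STING, TREX1 and IKBKE in the 4 libraries. Variant 1 of STING is larger in Myc-TRIM40 than in control vector cells in both experiments, whereas variant 2 of IKBKE goes from 0% to 53.5% in experiment 1 and from 33.6% to 30.4% in experiment 2.

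The promoters of IFI16 and AIM2 are shown because these are neighbouring PYHIN genes of which IFI16 was higher in Myc-TRIM40 cells and AIM2 had no reads. Each is the 250 bases before a RefSeq transcription start (GRCh38.p14), 5′ to 3′ along the gene, with capitals marking repeats of the GAAA half-site of interferon-responsive elements. RefSeq gives IFI16 2 starts on the plus strand, whose windows are chr1:159008741-159008990 and chr1:159009657-159009906, and AIM2 1 start on the minus strand, whose window is chr1:159076767-159077016.
IFI16 start 1: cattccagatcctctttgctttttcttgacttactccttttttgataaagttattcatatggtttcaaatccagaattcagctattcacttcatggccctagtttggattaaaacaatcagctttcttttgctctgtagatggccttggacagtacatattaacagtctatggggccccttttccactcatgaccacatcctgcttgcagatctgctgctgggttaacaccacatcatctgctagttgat
IFI16 start 2: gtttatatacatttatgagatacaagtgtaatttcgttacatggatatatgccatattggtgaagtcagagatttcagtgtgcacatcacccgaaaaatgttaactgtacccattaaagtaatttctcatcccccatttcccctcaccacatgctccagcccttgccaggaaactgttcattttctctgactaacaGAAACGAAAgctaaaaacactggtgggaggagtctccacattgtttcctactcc
AIM2: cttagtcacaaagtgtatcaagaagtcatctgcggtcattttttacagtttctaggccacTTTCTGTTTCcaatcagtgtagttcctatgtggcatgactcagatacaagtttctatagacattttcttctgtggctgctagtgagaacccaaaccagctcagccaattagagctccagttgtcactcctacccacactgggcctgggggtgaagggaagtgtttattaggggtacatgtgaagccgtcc
The core of the interferon-stimulated response element, GAAANNGAAA on either strand, was found in AIM2 as TTTCTGTTTC, from 190 to 181 bases before the start, and in neither IFI16 window. It occurs in 3.02% of 35116 such windows. The second IFI16 window holds GAAACGAAA, from 54 to 46 bases before the start, a match to GAAANGAAA, in which the half-sites are 1 base closer. That motif, searched on both strands after the sequence was seen, occurs in 2.69% of windows. Promoter windows were matched for 5 of the 8 genes, and those of TREX1, TBK1 and IKBKE held neither repeat. The interferon-gamma-activated sequence TTCNNNGAA, searched as written since it reads the same on both strands, can overlap the other motifs. It occurs in 6.57% of windows and was in none of the 6 member windows. These are matches of letters and do not show that a factor binds.

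The other genes of the pathway were taken from a list of 74 genes, of which 70 were tested, while PYHIN1, MNDA, IFNB1 and IFNL1 did not pass the filter on low counts. At an adjusted p under 0.05, edgeR called 0 of the 70 (without adjustment, 10 were higher and 1 was lower), limma called 0, and DESeq2 called 4 higher, namely SAMHD1, USP18, IFIH1 and DDX58, and none lower. Over all genes tested, 3.41% were higher and 1.13% lower without adjustment in edgeR, and DESeq2 called 0.303% higher. By the ratio of FPKM + 1, 6 of the 74 were at least 1.5-fold higher in both experiments and 1 was lower, against 0.26% and 0.0506% of all genes. Earlier results of these data were known when the list was written and it holds interferon-stimulated genes, so these shares are a description. The sets also differ in expression, since genes without reads are among the 27685 and cannot pass. With a mean FPKM of at least 1 required, 67 genes were higher and 13 lower in both experiments. The median log2 fold change of the 70 genes was 0.08, with 0.09 in experiment 1 and 0.05 in experiment 2, beside 0.04 over all genes tested.

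By role, the 18 DNA-binding sensors and cofactors tested, among them the DNA-dependent protein kinase genes XRCC5, XRCC6 and PRKDC, the RNA polymerase III genes and BANF1, which shields DNA from cGAS, lay between -0.31 and 0.27 on the log2 scale, with a median of -0.02. Among the 8 enzymes that remove or edit nucleic acids or nucleotides, SAMHD1, a dNTP hydrolase, was at 7.93 FPKM in control vector and 43.4 FPKM in Myc-TRIM40 cells of experiment 1, and at 4.45 and 11.1 FPKM in experiment 2 (log2 fold change 1.81, standard error 0.31, edgeR adjusted p = 0.167). ADAR, which edits double-stranded RNA, was at 48.1 and 88.6 FPKM in the first and 24.2 and 43.2 FPKM in the second. Both were higher in each Myc-TRIM40 library than in its own control. DNASE1L1, a DNase I-like enzyme, was the 1 gene of the list at least 1.5-fold lower in both, from 21.1 to 11.9 FPKM and from 18.2 to 10.5 FPKM (log2 fold change -0.88, standard error 0.21, edgeR adjusted p = 0.523).

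Among the 16 genes of STING trafficking and its ligases, USP18, which removes ISG15 from proteins, went from 3.24 to 20.1 FPKM in experiment 1, while in experiment 2 it went from 2.66 to 4.88 FPKM. NPC1, a lysosomal cholesterol transporter that promotes STING turnover, went from 8.23 to 13.4 FPKM and from 5.07 to 8.70 FPKM. The ligase genes RNF5 and TRIM56 had log2 fold changes of 2.12 and 0.60 (unadjusted p = 0.0242 and 0.0312, adjusted p = 0.888 for both, edgeR). RNF5 had few reads, 5 with the control vector and 23 with Myc-TRIM40 in experiment 1, and 5 and 22 in experiment 2. The median of the group was 0.18. The 11 adaptors and activators of TBK1 and IKK epsilon had a median of 0.25, and 2 of them passed 1.5-fold in both experiments. The edgeR adjusted p of the 7 genes that passed 1.5-fold in both lay between 0.167 and 0.888. IFIH1 (MDA5), an RNA sensor, went from 3.62 to 26.7 FPKM and from 3.27 to 5.95 FPKM, and DDX58 (RIG-I) from 2.84 to 22.2 FPKM and from 2.30 to 4.06 FPKM. The TBK1 scaffold genes TANK, AZI2 and TBKBP1 had log2 fold changes of 0.08, -0.01 and 0.97, TBKBP1 having 8 and 39 reads in the first experiment and 13 and 10 in the second. OPTN, an adaptor that binds TBK1, was at 5.04 and 12.8 FPKM and then at 5.91 and 6.97 FPKM (log2 fold change 0.71, unadjusted p = 0.0442 and adjusted p = 0.888 with edgeR).

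**Figure D4:**
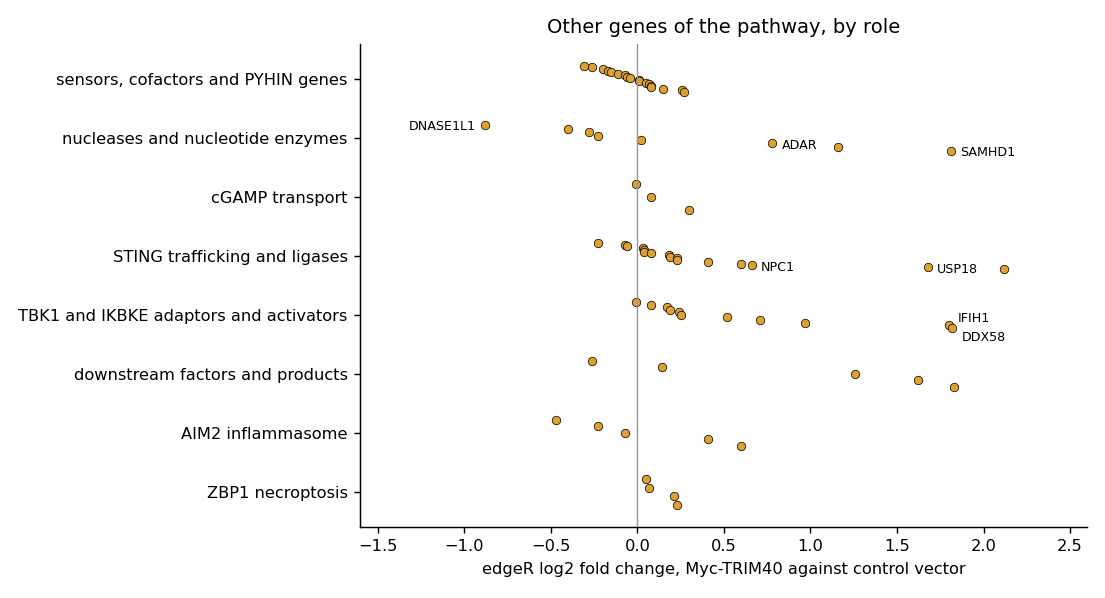
EdgeR log2 fold change of Myc-TRIM40 against control vector (x axis) for the 70 tested genes of the pathway list, 1 point a gene, in rows by role. The 7 named genes passed 1.5-fold on FPKM + 1 in both experiments, and the sensors and cofactors lie within -0.31 and 0.27.

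Products of the pathway were read beside the members, the following being chosen after their values were seen. IFNB1, the interferon gene that IRF3 activates, had 32 reads with Myc-TRIM40 in experiment 1 and 0 reads in each of the other 3 libraries. IFNL1, a type III interferon, had 8 reads in control vector and 176 reads in Myc-TRIM40 cells of experiment 1, and 5 reads in either library of experiment 2. CXCL10, an interferon-induced chemokine, had 24 and 324 reads in the first experiment, against 42 and 39 in the second, and a fitted log2 fold change of 1.83 (standard error 0.84, edgeR adjusted p = 0.888). These 3 genes were high in the same library as IFI16 and ZBP1. In experiment 2 their reads were not higher with Myc-TRIM40. Those of IFI16 were, with 53 reads against 7. The 6 listed genes that passed 1.5-fold higher in both experiments were higher there by that rule, so they are no separate observation. What links these values was not tested. IRF3 itself was at -0.26 on the log2 scale (standard error 0.22, edgeR adjusted p = 0.888). IRF7, a related factor that interferon induces, was at 16.5 and 80.8 FPKM in the first experiment and 16.5 and 21.8 FPKM in the second (log2 fold change 1.26, unadjusted p = 0.0165 and adjusted p = 0.888 with edgeR). The 5 tested genes of this group, which also holds CCL5 and STAT6, had a median of 1.26, with 2.25 in experiment 1 and -0.12 in experiment 2. The difference between the experiments was not tested, as each has 1 library per group, and TRIM40 reads were likewise higher in experiment 1.

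**Figure D5:**
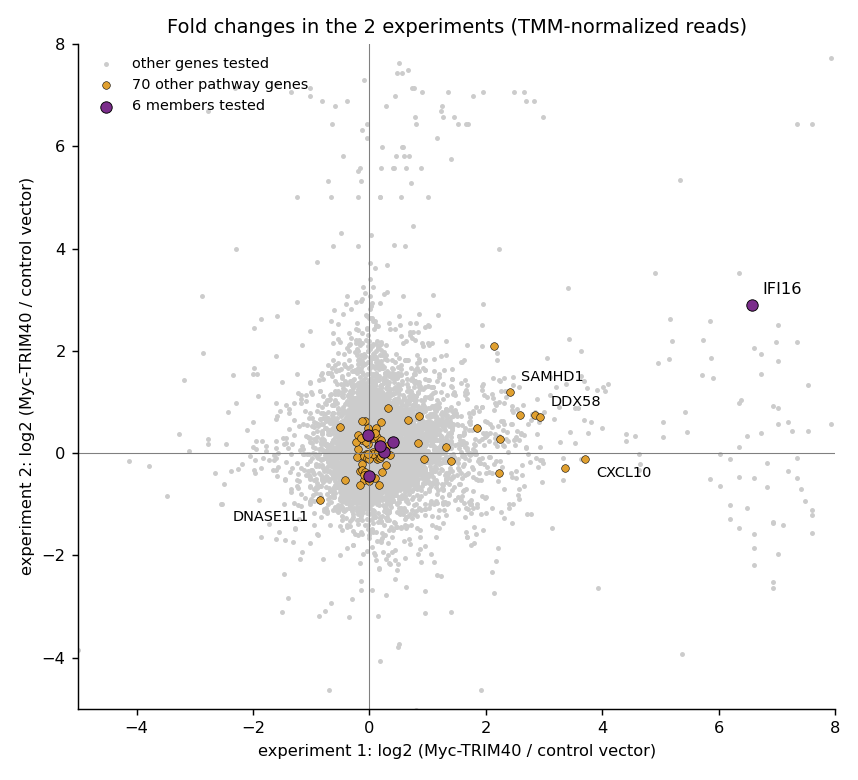
Log2 ratio of Myc-TRIM40 to control vector on TMM-normalized reads in experiment 1 (x axis) and experiment 2 (y axis) for the genes tested other than TRIM40 (grey, 97 of them outside the axes), the 70 pathway genes (orange) and the 6 members tested (purple). IFI16 lies at 6.57 and 2.89, apart from the other 5 members near the origin, and CXCL10 lies at 3.71 and -0.12.

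Of the genes downstream of AIM2, PYCARD and GSDMD were at 21.7 FPKM or more in every library and IL18 at 1.93 FPKM or more, while CASP1 was at 0.476 FPKM or less and IL1B at 0.203 FPKM or less. The 5 genes of the AIM2 inflammasome had a median log2 fold change of -0.07, and the 4 necroptosis genes, RIPK1, RIPK3, MLKL and CASP8, lay between 0.05 and 0.23. None of the 9 passed an adjusted or unadjusted p under 0.05 in edgeR.

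By the distance between profiles of log2(FPKM + 1) over the 4 libraries, each centred on its mean, the 3 tested genes most like IFI16 were C19orf66, ETV7 and REC8, at distances of 0.124, 0.135 and 0.166. ETV7, for example, went from 0.0540 to 2.62 FPKM in experiment 1, against 0.137 to 0.264 FPKM in experiment 2. The nearest to TBK1 were STK17B, ENDOD1 and CAPN7, at 0.0237 to 0.0419, and to IKBKE AHRR, YPEL2 and ADAM8, at 0.0339 to 0.0390. CDC27, ZNF18 and EXOC5 were nearest to cGAS, at 0.0246 to 0.0352. GYG2, INPP1 and ALOX15 were nearest to STING, at 0.0172 to 0.0178, and UBALD1, MOB2 and WDR18 to TREX1, at 0.0189 to 0.0453. These distances rest on 4 libraries and are descriptions. The added 1 flattens genes at low FPKM, so near profiles can have unlike ratios. On TMM-normalized reads the log2 ratios of experiments 1 and 2 were 1.84 and 0.90 for ALOX15, against 0.25 and 0.02 for STING. For C19orf66 they were 1.79 and 0.17, against 6.57 and 2.89 for IFI16.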

How the data were processed

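The authors deposited a number of reads for each of 63714 RefSeq transcripts, as whole counts that were not normalized, with FPKM, and for experiment 2 TPM; the other deposited values used were transcript lengths. The submitters' processing notes list HISAT2 2.1.0, StringTie 1.3.4d and hg19, without roles or filters. The libraries were made with a stranded mRNA kit.

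Transcripts were summed to 27685 genes. TPM of experiment 1 was computed from FPKM. The filterByExpr function kept 14868 genes, which were normalized by TMM and tested with edgeR 4.0.16 under R 4.3.3 (glmQLFit, glmQLFTest). P-values were adjusted by Benjamini and Hochberg. The experiment was a block, since the study computed fold changes within an experiment. Pairing rests on the labels' replicate numbers and on the tables, each holding 1 experiment, and same-numbered libraries deviated together from their group means (correlation 0.449 across genes). Only 1 residual degree of freedom remained, and the estimated common dispersion was 0.0484. Each standard error is the log2 fold change over the square root of F. The paper describes the experiments as independent but does not say whether their cells came from separate transductions. P-values therefore measure only the spread between these libraries. An exact permutation test of 2 against 2 libraries cannot give a two-sided p below 0.333 and was not used. Sums, intervals and figures used Python 3.11.15, pandas 2.3.3, scipy 1.17.1 and matplotlib 3.10.9. The edgeR test was tested on simulated counts over 14854 genes, with genes of known change.

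The members and gene lists were chosen with earlier results of these data known. Named were the members, TRIM40, genes overlapping a member, listed pathway genes 1.5-fold changed in both experiments, past the test or at the floor of 3 reads, and the 3 nearest profiles per member. Pathway genes named as examples of a role, RNF5, TRIM56, cell type markers, and IFNB1, IFNL1, CXCL10, CCL5, IRF3, IRF7 and STAT6 fall outside this rule. They were chosen after their values were seen. A further leukocyte marker is not reported here.

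The alternatives were no block, DESeq2 1.42.0, limma 3.58.1 on log2(FPKM + 1), upper-quartile and median-centred normalization, no filter, overlapping genes summed, each experiment left out, and for the 1.5-fold rule a pseudocount of 0.1, TPM, a fold of 2 and a mean FPKM of at least 1.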

Additional observations from a re-analysis of the deposited data

How the results depend on the processing

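With 2 libraries per group, the number of experiments limits every fold change. At an adjusted p under 0.05, edgeR called 6 genes higher and 3 lower. Without the replicate block it called 0 and 0 (128 and 25 unadjusted), and IFI16 had a log2 fold change of 5.33 with an adjusted p of 1. DESeq2 called 45 and 9 genes, IFI16 among them (4.70, adjusted p = 8.45e-06), limma called 3 and 0 (587 and 134 unadjusted), and no filter gave 0 and 0 (343 and 104). With no filter ZBP1, absent from the other fits, had an adjusted p of 0.804. DESeq2 alone moved a member past the threshold. The log2 fold changes of the 6 members kept their direction under the 6 other fits, and those of TREX1 and IKBKE also with overlapping genes summed. With 1 experiment left out they ranged from 2.89 to 6.57 for IFI16, and cGAS from -0.02 to 0.36.

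Members 1.5-fold higher in both experiments numbered 0, and 1 with a pseudocount of 0.1 and 1 with TPM, which was IFI16 each time. With 1 experiment counted they ranged from 0 to 2. Among all genes there were 72 higher and 14 lower, and with a pseudocount of 0.1 there were 380 and 106. TPM gave 187 higher, and a fold of 2 gave 20 and 5. With 1 experiment counted, 459 to 1303 genes were higher and 129 to 441 lower. With 1 experiment the edgeR test has no replicate and was not run. For each value that differed, the cause was not tested.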
